A study of Mus musculus with 6 samples.

Results

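Sox2 and 9 other transcription factors of the pluripotency network (Pou5f1, Nanog, Klf4, Klf2, Esrrb, Tfcp2l1, Prdm14, Zfp42 and Tbx3) were followed in cultured mouse germline stem cells. They were chosen by symbol, and all 10 have a row among the 32285 genes of the count table. Sox2 had been singled out beforehand for its difference between the same libraries, so the values of the 10 factors are given as a description. No p-value is printed for a single factor, and later counts of factors past a threshold are descriptions too. The cells are a wild-type, GFP-marked germline stem cell line with a DBA background in its name, that is, spermatogonial stem cells kept in culture. The control group holds 3 libraries of this line in complete medium. The pyruvate group holds 3 libraries of the same line in a medium named for 8 mM pyruvate, and no label says what else differed between the media. All 6 libraries share the one line and its GFP marker, and no label ties a library to a separate culture, so the spread between libraries may be technical.

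In embryonic stem cells, SOX2 and OCT4 (the product of Pou5f1) bind side by side at enhancers and keep each other, NANOG and many other genes active. KLF4, KLF2, ESRRB, TFCP2L1, TBX3 and PRDM14 maintain the naive state around that core, several of them under LIF and STAT3 or as genes repressed by TCF7L1, and ZFP42 (REX1) is a marker of it. Germline stem cells are unipotent, and they are known to carry Pou5f1 and Sox2 transcripts while Nanog is largely silent.

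The core partnership can be read in promoter DNA, which is shown because the members it links had very different levels in these cells. OCT4 recognises an octamer whose core is TTTGCAT, and in Nanog this core is followed, after a gap of 1 base, by the SOX core ACAATG. The 250 bases before the annotated start of Sox2 (chr3:34649745-34649994, plus strand), Nanog (chr6:122707239-122707488, plus strand) and Zfp42 (chr8:43307010-43307259, minus strand) are printed from RefSeq on GRCm38.p6, whose start of Sox2 lies upstream of the GENCODE gene start given with its values, 5′ to 3′ in the direction of the gene. Capitals mark the octamer core on either strand and, in Nanog, the whole composite.
Sox2: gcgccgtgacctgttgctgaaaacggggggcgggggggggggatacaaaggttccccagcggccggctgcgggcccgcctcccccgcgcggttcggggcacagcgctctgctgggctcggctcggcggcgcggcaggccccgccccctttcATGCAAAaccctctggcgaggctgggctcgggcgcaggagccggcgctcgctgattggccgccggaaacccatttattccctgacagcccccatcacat
Nanog: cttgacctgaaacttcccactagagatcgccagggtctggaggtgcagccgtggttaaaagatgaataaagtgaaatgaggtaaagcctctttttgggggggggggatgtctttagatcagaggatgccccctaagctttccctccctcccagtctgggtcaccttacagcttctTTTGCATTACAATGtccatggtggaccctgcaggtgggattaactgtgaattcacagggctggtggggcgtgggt
Zfp42: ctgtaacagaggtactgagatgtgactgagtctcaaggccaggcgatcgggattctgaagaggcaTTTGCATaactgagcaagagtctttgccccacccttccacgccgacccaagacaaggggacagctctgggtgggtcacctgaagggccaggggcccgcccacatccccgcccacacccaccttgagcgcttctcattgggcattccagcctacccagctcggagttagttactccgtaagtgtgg

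In Sox2 the octamer core lies on the strand opposite to the gene, with its first base 99 bases before the RefSeq start. In Zfp42 it lies on the strand of the gene, 185 bases before the start. In Nanog the composite begins 75 bases before the first of its annotated starts. The search covered both strands of windows from 250 bases before to 50 bases after each RefSeq start. Windows were found for 8 of the 10 factors, 11 windows in all. The octamer core was present in 4.63% of all 32851 windows in the table, and the composite with that gap in 2 of them, both of Nanog. The motifs were chosen after the sequences had been read, and a match describes letters, not binding.

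Depth was similar in all libraries, at 20918312 to 26413080 counts in total and 19132 to 19683 genes with a count. A floor of 3 counts corresponded to 0.116 to 0.143 CPM, the count scaled to a common library total with TMM factors, and it covers counting error only. The library of control replicate 2 differed most from the others, with a score of 36.5 on the leading principal component (38.9% of the variance), where pyruvate replicate 1 had the opposite extreme of -27.2. All 19 germ cell and spermatogonial marker genes were detected and tested, and their summed level was 4695 to 5405 CPM in the control group and 4638 to 4914 CPM in the pyruvate group. Fibroblast and feeder cell genes summed to 613 to 684 CPM in control and 663 to 706 CPM in pyruvate libraries. Of these 13 genes 11 were tested and edgeR called 0. Single genes of the cell type lists, here and below, are named after their values were seen. Fn1 was the most abundant per kb, and the groups did not overlap for 2 genes in the higher direction (Col1a1 and Col5a1) and 2 in the lower (Fn1 and Pdgfra). Over all tested genes, 11.9% did not overlap in the higher direction and 10.6% in the lower. Without control replicate 2 edgeR called 2 of the fibroblast and feeder cell genes higher, Col5a1 and Acta2, against 2.33% of all tested genes. Dcn lay at 0.138 to 0.681 CPM and Lum at 0.116 to 0.438 CPM, and the part of such cells in the levels of the factors was not tested. Sertoli cell genes summed to 27.1 to 30.5 and 25.7 to 31.5 CPM, endothelial genes to 23.1 to 24.1 and 18.4 to 25.8 CPM, and macrophage genes to 4.83 to 7.40 and 4.997 to 6.77 CPM. Leydig cell genes summed to 2.82 to 4.003 and 2.64 to 2.86 CPM, and 3 of their 6 genes (Hsd3b1, Insl3 and Lhcgr) were at 0 counts in all libraries, as were Emcn of the endothelial list and Adgre1 of the macrophage list.

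Sox2 (ENSMUSG00000074637, chr3:34650405-34652461, plus strand, GRCm38), the HMG-box partner of OCT4, was lower in all 3 pyruvate libraries than in any control. Its level was 45.1, 50.3 and 48.1 CPM in the control libraries (replicates 1, 2 and 3 in this order, as throughout) and 15.9, 22.3 and 25.6 CPM in the pyruvate libraries, from 399 to 1281 counts per library. The highest pyruvate library thus remained well under the lowest control, and pyruvate replicate 1 was the lowest of all. The mean was 47.8 ± 2.59 CPM (SD, n = 3) in control and 21.3 ± 4.95 CPM (SD, n = 3) in pyruvate medium, 2.25 times as much in control. The fitted log2 fold change, pyruvate minus control, was -1.17 (SE 0.162). Counting Sox2 itself, 26 of 14912 tested genes had a log2 fold change this low, and 2 of the 10861 with a mean of at least 5 CPM did. Without pyruvate replicate 1 the log2 fold change was -0.99, the smallest value over the leave-one-out fits, and without control replicate 2 it was -1.13. In bulk RNA, fewer cells with Sox2 and less Sox2 RNA per cell cannot be told apart.

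**Figure D1:**
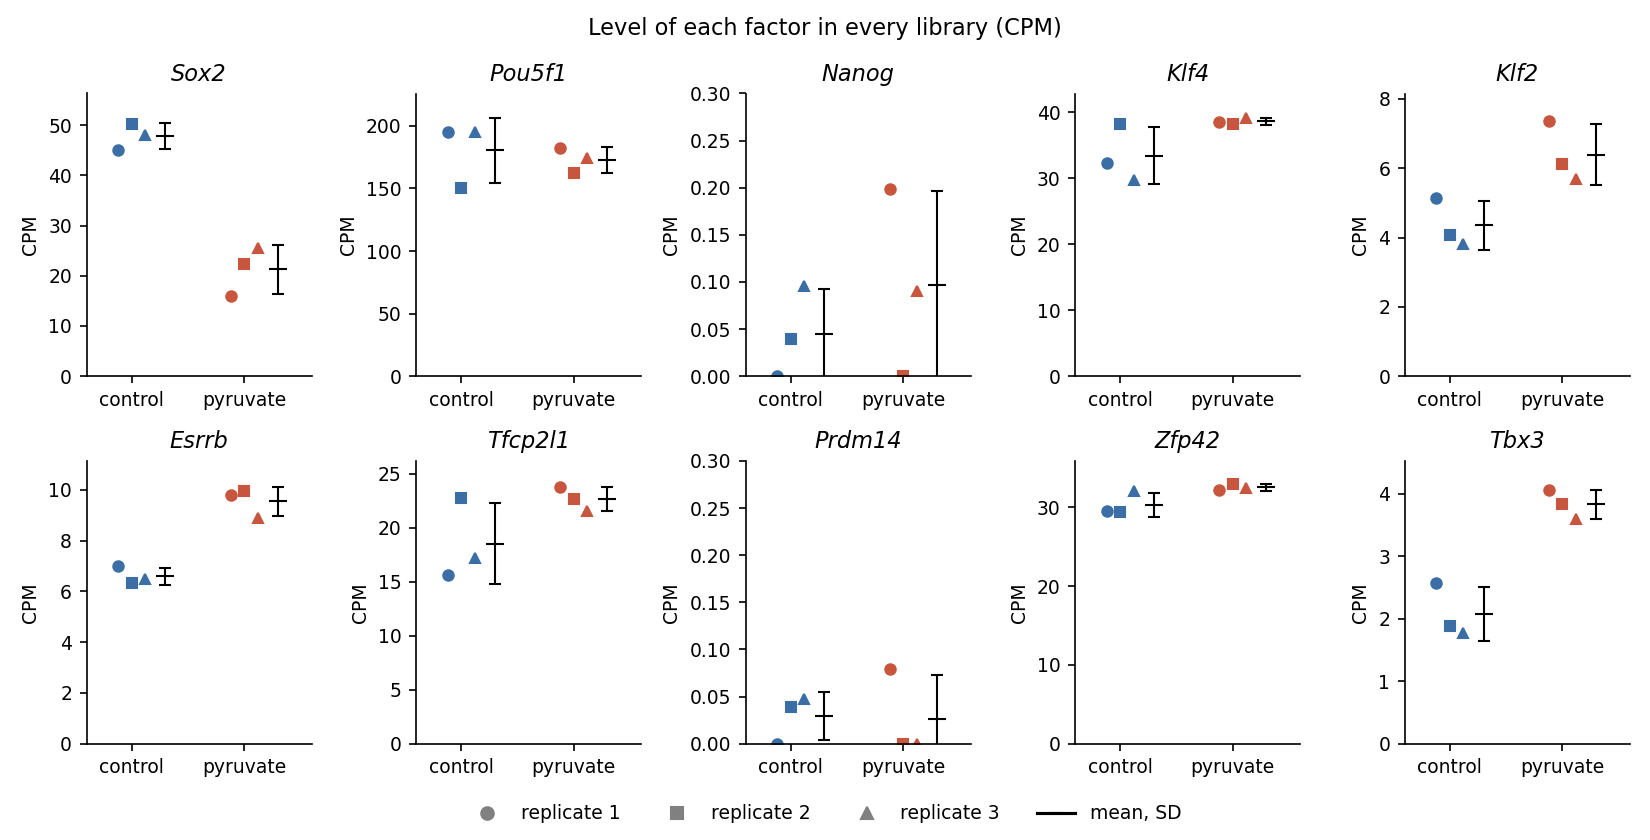
Level of each of the 10 factors in CPM (vertical axes, different ranges) in the control and pyruvate libraries, with symbols for replicates 1, 2 and 3 and bars for the mean and SD, cut at 0 for Nanog and Prdm14. Sox2 lay at 45.1 to 50.3 CPM in control and 15.9 to 25.6 CPM in pyruvate libraries, while Pou5f1 overlapped between the groups and Nanog and Prdm14 stayed under 0.2 CPM.

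Pou5f1 (ENSMUSG00000024406, chr17:35506018-35510772, plus strand), which encodes OCT4, was the most abundant of the 10 and did not separate the groups. It stood at 195, 150 and 195 CPM in the control libraries and at 182, 162 and 174 CPM in the pyruvate libraries. The lowest value was that of control replicate 2, and all pyruvate values fell inside the control range. The means were 180 ± 26.01 and 173 ± 10.1 CPM (SD, n = 3 each), with a log2 fold change of -0.062 (SE 0.112) that changed sign when control replicate 1 or control replicate 3 was left out. Its exons overlap those of Gm19553 on the opposite strand, which held 1 to 8 counts per library. The ratio of Sox2 to Pou5f1, each per kb of exon, was 0.252, 0.366 and 0.269 in the control libraries and 0.0954, 0.151 and 0.161 in the pyruvate libraries. The ratio was lower in every pyruvate library than in any control, while Pou5f1 itself overlapped between the groups.

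Nanog (ENSMUSG00000012396, chr6:122707489-122714633, plus strand), the homeobox factor that closes the core circuit, was at the limit of counting. It had 0, 1 and 2 counts in the control libraries and 5, 0 and 2 counts in the pyruvate libraries, so 1 of 6 libraries, pyruvate replicate 1, passed the floor of 3 counts. Prdm14 (ENSMUSG00000042414, chr1:13113457-13127163, minus strand), a PR-domain factor of primordial germ cells and naive stem cells, had 0, 1 and 1 counts and then 2, 0 and 0, with no library above the floor. Neither gene entered the test, and no fold change is given for them. The other 8 factors were above the floor in all 6 libraries.

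Of the Krüppel-like factors, Klf4 (ENSMUSG00000003032, chr4:55527143-55532466, minus strand) was the more abundant and Klf2 (ENSMUSG00000055148, chr8:72319033-72321656, plus strand) the one whose groups were apart. Klf4 stood at 32.3, 38.3 and 29.7 CPM in control and 38.5, 38.1 and 39.2 CPM in pyruvate replicates 1, 2 and 3. Control replicate 2 was level with the pyruvate libraries, so the groups overlapped. The means were 33.4 ± 4.38 and 38.6 ± 0.51 CPM (SD, n = 3 each), and the log2 fold change was 0.21 (SE 0.107).

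Klf2, which can stand in for Klf4 in naive stem cells, stood at 5.15, 4.08 and 3.82 CPM in control and 7.37, 6.13 and 5.68 CPM in pyruvate replicates. All 3 pyruvate libraries lay above all 3 controls, and replicate 1 was the highest in each group. The means were 4.35 ± 0.70 and 6.39 ± 0.87 CPM (SD, n = 3 each), with a log2 fold change of 0.56 (SE 0.167).

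Esrrb (ENSMUSG00000021255, chr12:86361117-86521628, plus strand), an orphan nuclear receptor that can replace Nanog in stem cells, was higher in every pyruvate library than in any control. Its levels were 6.98, 6.32 and 6.49 CPM in control and 9.80, 9.96 and 8.90 CPM in pyruvate replicates 1, 2 and 3, from 136 to 257 counts. Both groups were tight, and the gap between them was wider than the range of either. The means were 6.60 ± 0.35 and 9.55 ± 0.57 CPM (SD, n = 3 each), with a log2 fold change of 0.54 (SE 0.115).

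Tbx3 (ENSMUSG00000018604, chr5:119670669-119684724, plus strand), a T-box factor of the naive network, had the highest log2 fold change of the 8 tested factors at 0.89 (SE 0.185), on low counts of 37 to 102 per library. It stood at 2.57, 1.88 and 1.77 CPM in control and 4.06, 3.84 and 3.59 CPM in pyruvate replicates 1, 2 and 3, so the groups did not overlap. The means were 2.07 ± 0.44 and 3.83 ± 0.24 CPM (SD, n = 3 each). Its exons overlap those of Tbx3os1 on the opposite strand, which had 0 counts in the controls and 2 to 3 counts in the pyruvate libraries.

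Tfcp2l1 (ENSMUSG00000026380, chr1:118627945-118685168, plus strand), a CP2-family factor that acts downstream of LIF and STAT3, overlapped between the groups. Its levels were 15.6, 22.7 and 17.2 CPM in control and 23.8, 22.6 and 21.5 CPM in pyruvate replicates. Control replicate 2 again stood with the pyruvate libraries, and without it the log2 fold change moved from 0.29 (SE 0.144) to 0.47. The means were 18.5 ± 3.75 and 22.6 ± 1.12 CPM (SD, n = 3 each). The annotation places the model gene Gm23497 on the same strand within its exons.

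Zfp42 (ENSMUSG00000051176, chr8:43295063-43306980, minus strand), a zinc finger protein related to YY1, was nearly level. It stood at 29.5, 29.4 and 32.1 CPM in control and 32.2, 33.0 and 32.4 CPM in pyruvate replicates 1, 2 and 3, with the highest control just under the lowest pyruvate library. The means were 30.4 ± 1.53 and 32.6 ± 0.42 CPM (SD, n = 3 each), and the log2 fold change was 0.10 (SE 0.083).

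In edgeR's quasi-likelihood test over all 14912 tested genes, 0 of the 8 tested factors were called at an adjusted p under 0.05, where 8 genes (0.0536%) were called in the whole table, 0.0201% higher and 0.0335% lower. At an unadjusted p under 0.05 there were 4 factors, 3 higher (Klf2, Esrrb and Tbx3) and 1 lower (Sox2), where 14.4% of all tested genes passed. DESeq2 called 3 of the 8, Esrrb and Tbx3 higher and Sox2 lower, against 2.30% of the 13755 genes to which it gave an adjusted p (1.32% higher and 0.981% lower). Without control replicate 2, edgeR called 2 of them, Tfcp2l1 higher and Sox2 lower, against 4.16% of all tested genes (2.33% higher and 1.82% lower). The groups did not overlap for 4 factors in the higher direction and 1 in the lower, against 22.5% of all tested genes, 11.9% higher and 10.6% lower. Log2 fold changes were above 0 for 6 of the 8 and below 0 for 2, with a median of 0.25, where the median over all tested genes was -0.010 and 48.1% lay above 0. Because the factors were proposed from this same contrast, these counts describe them and support nothing further.

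**Figure D2:**
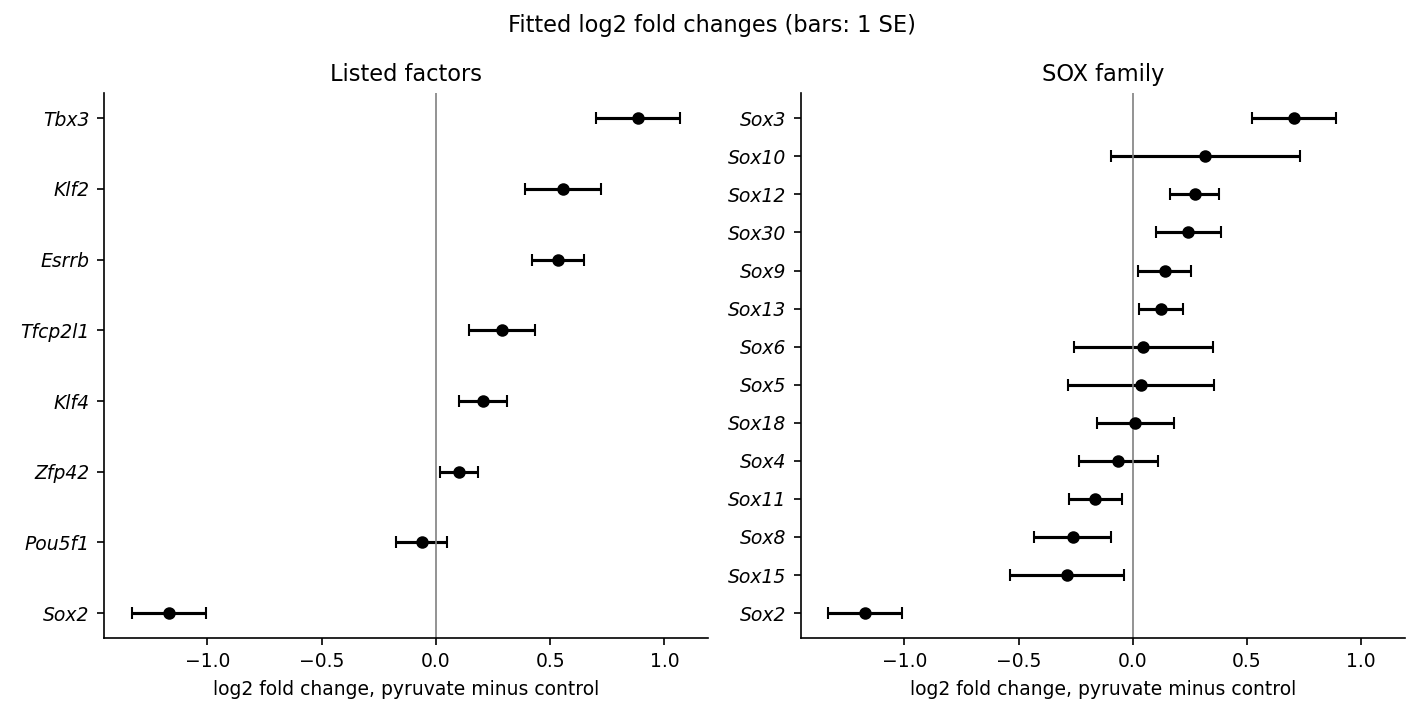
Fitted log2 fold changes, pyruvate minus control (horizontal axes), of the 8 tested factors (left) and the 14 tested SOX genes (right); points are estimates and bars are 1 SE. Sox2 at -1.17 lies far to the left of every other gene in both panels, and Tbx3 at 0.89 and Sox3 at 0.71 lie farthest to the right.

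Genes were compared with each other as CPM per kb of exon. The length is that of all annotated exons joined, not of the transcripts present, so the order between genes is approximate. The control order ran Pou5f1 (80.2), Sox2 (23.3), Zfp42 (16.1), Klf4 (10.97), Klf2 (2.35), Tfcp2l1 (1.96), Esrrb (1.09), Tbx3 (0.31), Nanog (0.020) and Prdm14 (0.011). Sox2 was thus the runner-up to Pou5f1 in complete medium. In pyruvate medium Sox2, at 10.3 ± 2.41 CPM per kb (SD, n = 3), stood at place 4, behind Zfp42 (17.3) and Klf4 (12.7). The step from Klf4 to Sox2 was narrow there, since the highest Sox2 library, at 12.5 CPM per kb, lay just under the lowest Klf4 library. The order of the other factors was the same in both media. Neighbours whose libraries overlapped were Klf2 and Tfcp2l1 in control, and Nanog and Prdm14 in both groups.

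**Figure D3:**
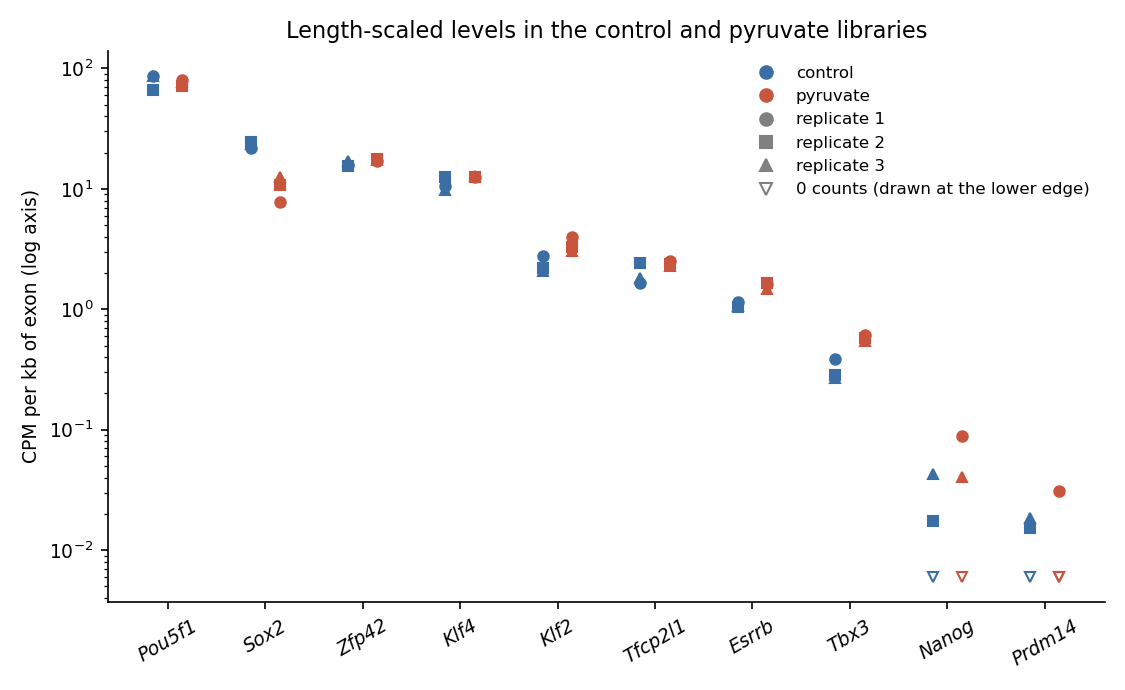
Length-scaled level (CPM per kb of exon, log axis) of the 10 factors in each control and pyruvate library, ordered by their control means, with open triangles at the lower edge for libraries with 0 counts. Sox2 drops from 23.3 to 10.3 on average and passes from above to below Zfp42 and Klf4, while Nanog and Prdm14 lie far under the rest.

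SOX2 belongs to the SOXB1 proteins with SOX1 and SOX3, which share nearly the same HMG box and can substitute for each other in stem and progenitor cells. Sox3 is also a gene of undifferentiated spermatogonia. Its level in CPM was 58.5, 50.3 and 52.5 in control and 117, 76.4 and 69.7 in pyruvate replicates 1, 2 and 3, so that it was higher in every pyruvate library while Sox2 was lower. The means were 53.8 ± 4.25 and 87.6 ± 25.5 CPM (SD, n = 3 each), with a log2 fold change of 0.71 (SE 0.185) and an adjusted p of 0.170 in edgeR. DESeq2 gave Sox3 an adjusted p of 0.0185, and over the 16 alternative settings it passed the threshold in 3. Pyruvate replicate 1 carried both the lowest Sox2 and the highest Sox3, and without it the log2 fold change of Sox3 was 0.45.

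Per kb of exon, the ratio of Sox2 to Sox3 was 0.774, 1.004 and 0.920 in the control libraries and 0.137, 0.294 and 0.369 in the pyruvate libraries. Sox2 and Sox3 were thus close to equal in complete medium, and Sox3 exceeded Sox2 by far in each pyruvate library. The summed level of Sox1, Sox2 and Sox3, a quantity chosen after the values were seen, was 50.3, 48.8 and 48.8 CPM per kb in control and 64.3, 47.9 and 46.2 CPM per kb in pyruvate replicates. That sum overlapped between the groups, at 49.3 ± 0.84 and 52.8 ± 9.996 CPM per kb (SD, n = 3 each). Sox1, also named after its values were seen, contributed almost nothing, at a mean of 0.0131 CPM in control and 0.179 CPM in pyruvate libraries. Genes of neural progenitors, where SOXB1 factors are also active, summed to 291 to 323 CPM in control and 307 to 366 CPM in pyruvate libraries, most of it from Msi1 and Nes. The highest sum was that of pyruvate replicate 1. Of the 9 genes 3 were tested and edgeR called 0. The groups did not overlap for Nes, at 137 ± 15.3 CPM in pyruvate and 103 ± 8.24 CPM in control libraries (SD, n = 3 each). Over all tested genes, 11.9% did not overlap in this direction. Dcx and Fabp7 were at 0 counts in all libraries. The part of such cells in the Sox2 and Sox3 levels was not tested.

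**Figure D4:**
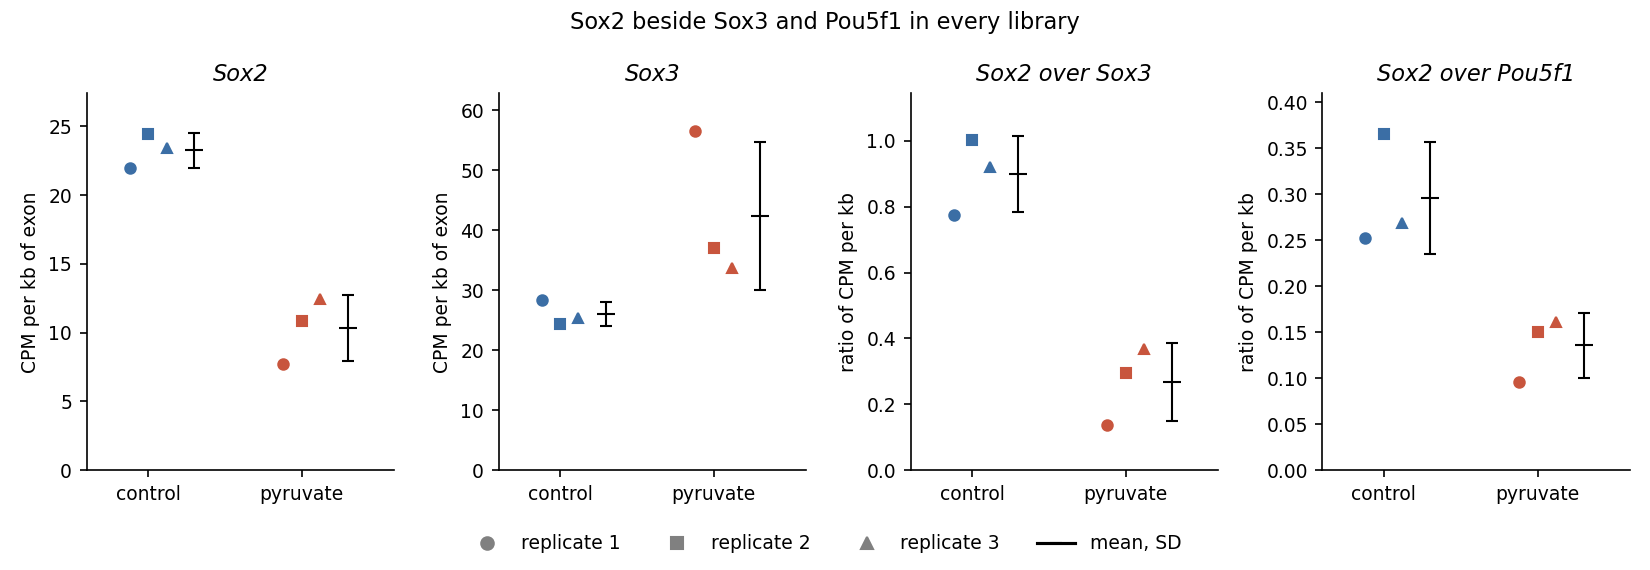
Sox2 and Sox3 per library (CPM per kb of exon), and the ratios of Sox2 to Sox3 and of Sox2 to Pou5f1 on the same scale, in the control and pyruvate libraries; symbols are replicates 1, 2 and 3 and bars are the mean and SD. The ratio to Sox3 lies at 0.774 to 1.004 in control and 0.137 to 0.369 in pyruvate libraries, and the ratio to Pou5f1 separates the groups as well.

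Among the 20 SOX genes of the list, 14 were tested and edgeR called 0 in either direction. DESeq2 called Sox3 higher and Sox2 lower, against 1.32% and 0.981% of the genes to which it gave an adjusted p. Sox2 had been chosen from this same contrast. Log2 fold changes were above 0 for 9 and below 0 for 5, with a median of 0.041. The most abundant per kb was Sox13, at 211 ± 15.6 CPM in control and 230 ± 22.9 CPM in pyruvate libraries (SD, n = 3 each). Sox2 made up 11.9% to 13.2% of the summed length-scaled SOX level in control and 3.88% to 6.46% in pyruvate libraries. The summed level of the whole family overlapped between the groups, at 185 ± 8.97 and 194 ± 4.11 CPM per kb (SD, n = 3 each).

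Sox2 lies inside the span of Sox2ot (chr3:34104270-34682619, plus strand), a long noncoding transcript unit whose exons do not overlap those of Sox2 in the annotation. Sox2ot had 25, 33 and 19 counts in control and 10, 20 and 9 counts in pyruvate replicates 1, 2 and 3, and the groups did not overlap. Its means were 1.12 ± 0.20 and 0.53 ± 0.21 CPM (SD, n = 3 each), with a log2 fold change of -1.07 (SE 0.332) and an adjusted p of 0.216 in edgeR, which did not pass. The estimate was close in size to that of Sox2, on far fewer counts. It remained below 0 in the 15 settings that gave a value, from -1.47 to -0.89.

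Of 20 genes whose start lies within 1000000 bases of that of Sox2, 5 have a name other than a model or clone name: Sox2ot, Ttc14, Ccdc39, Fxr1 and Dnajc19, and all 5 were tested. Fxr1, which encodes an RNA-binding protein, stood at 234 ± 18.7 CPM in control and 226 ± 1.18 CPM in pyruvate libraries, with a log2 fold change of -0.051. Dnajc19, for a mitochondrial import protein, had a log2 fold change of -0.060, Ccdc39, for a ciliary protein, one of -0.043, and Ttc14 one of -0.26. Their groups overlapped and their adjusted p in edgeR was 0.686 to 0.935. Each of these 4 estimates changed sign under at least one alternative setting. Ttc14 and Ccdc39 overlap each other on opposite strands, as do Fxr1 and Dnajc19.

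**Figure D5:**
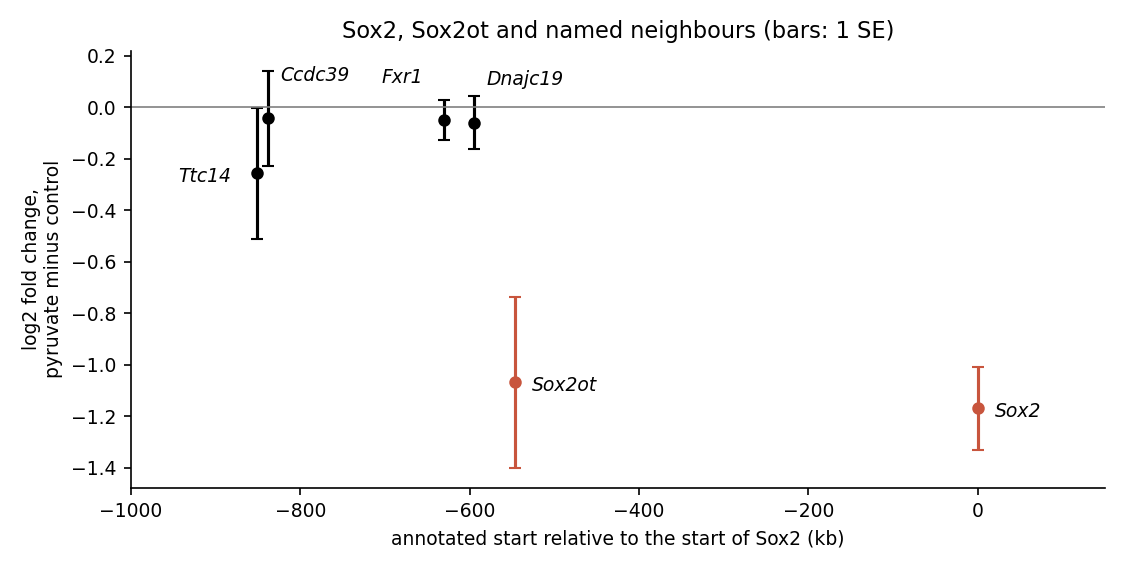
Log2 fold change, pyruvate minus control (vertical axis), of Sox2, Sox2ot and the 4 other named neighbours against the distance of their annotated start from that of Sox2 in kb (horizontal axis); points are estimates and bars are 1 SE. Sox2 at -1.17 and Sox2ot at -1.07 lie together, while the other 4 lie between -0.26 and -0.043.

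The families of the other factors showed no call in edgeR. Of 15 POU genes, 7 were tested, 4 with a log2 fold change above 0, at a median of 0.14. Pou5f1 was the most abundant of them per kb. Pou3f3 had the highest log2 fold change (0.58, adjusted p = 0.544) and Pou2f1, the widely expressed OCT1, the lowest (-0.13, adjusted p = 0.828), which turned to 0.23 without control replicate 2. Of 17 KLF genes, 15 were tested, 8 of them above 0, at a median of 0.053. Klf16 was the most abundant per kb, at 73.7 ± 4.29 and 76.8 ± 2.13 CPM (SD, n = 3 each), Klf2 had the highest log2 fold change, and Klf9 the lowest (-0.29, adjusted p = 0.521). Without control replicate 2, edgeR called 1 KLF gene as higher, Klf7, against 2.33% of all tested genes. Klf7 is named here after its value was seen.

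Of 24 relatives and partners of Esrrb, Tfcp2l1, Prdm14, Tbx3 and Zfp42 (the factors included), 18 were tested, 13 of them above 0 at a median of 0.22, and 0 were called by edgeR. Those at an unadjusted p under 0.05 were 5 higher and 0 lower, where 14.4% of all tested genes passed in either direction and 48.1% lay above 0. Esrrb and Tbx3, chosen from this same contrast, are among the 5. Tbx3 had the highest log2 fold change. Ubp1, a CP2-family gene related to Tfcp2l1, was the most abundant per kb, at 113 ± 10.99 and 109 ± 6.79 CPM (SD, n = 3 each), and Esrra, another oestrogen-related receptor, had the lowest log2 fold change (-0.14, adjusted p = 0.638).

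Among 28 other genes of the pluripotency network, 20 were tested, 10 with a log2 fold change on each side of 0, and edgeR called 0. Dppa3 (Stella), which protects imprints in the early embryo and marks germ cells, had the highest. It stood at 2.71, 2.67 and 2.24 CPM in control and 6.05, 5.31 and 3.41 CPM in pyruvate replicates, with a log2 fold change of 0.96 (SE 0.227, adjusted p = 0.149 in edgeR and 0.0192 in DESeq2). Zscan10, a zinc finger factor of embryonic stem cells, had the lowest. It stood at 8.32, 7.30 and 9.64 CPM in control and 4.74, 6.55 and 5.04 CPM in pyruvate replicates, with a log2 fold change of -0.62 (SE 0.169, adjusted p = 0.175 in edgeR). Without control replicate 2 it was called lower, at an adjusted p of 0.0427. Both genes had groups that did not overlap, in opposite directions. The most abundant per kb, the corepressor gene Trim28, was level at 865 ± 106 and 875 ± 63.2 CPM (SD, n = 3 each).

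The formative and primed state genes gave 9 tested of 12, with 2 above and 7 below 0, a median of -0.16 and 0 calls. Tcf15 was the most abundant per kb, at 93.2 ± 14.3 and 83.4 ± 8.80 CPM (SD, n = 3 each). Etv4, an ETS factor under FGF and GDNF signalling, had the lowest log2 fold change (-0.30, adjusted p = 0.410), and Lef1, a nuclear effector of Wnt signals, the highest (0.32, adjusted p = 0.367). The epiblast genes Otx2 and Fgf5, chosen after their values were seen, had at most 1 count in any library.

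Of 16 genes of LIF, STAT3 and TCF7L1 signalling, 15 were tested and edgeR called 0. Log2 fold changes were above 0 for 8 and below 0 for 7, at a median of 0.018. The groups did not overlap for 4 genes higher and 2 lower, against 11.9% and 10.6% of all tested genes. DESeq2 called 1 higher and 1 lower, against 1.32% and 0.981% over the whole table. Without control replicate 2, edgeR called 2 higher and 1 lower, against 2.33% and 1.82%. Tcf7l1, the Wnt pathway repressor that restrains Esrrb, Tfcp2l1, Klf2 and Nanog in embryonic stem cells, had the lowest log2 fold change. It stood at 24.8, 18.6 and 23.1 CPM in control and 14.2, 14.8 and 16.7 CPM in pyruvate replicates, with every pyruvate library below every control. The log2 fold change was -0.54 (SE 0.131, adjusted p = 0.154 in edgeR and 0.0258 in DESeq2), and without control replicate 2 it was -0.66 at an adjusted p of 0.0117. The most abundant per kb was Ctnnb1, for beta-catenin, at 691 ± 67.9 and 594 ± 40.6 CPM (SD, n = 3 each).

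The pattern of Sox2 over the 6 libraries was ranked against the 10506 named genes with a mean of at least 5 CPM by Pearson's r of log2 CPM. The closest were Ezh2, for the histone methyltransferase of Polycomb complex PRC2, followed by Arhgap30, Mtbp, Pbx3 and Mtcl1, with r from 0.993 to 0.995. Ezh2 stood at 134, 138 and 137 CPM in control and 90.6, 106 and 105 CPM in pyruvate replicates 1, 2 and 3. The most opposite were Oasl2, an interferon-induced gene, then Ccdc181, Fbxo32, Derl3 and Zmynd8, with r from -0.995 to -0.993. Oasl2 stood at 16.5, 13.5 and 14.9 CPM in control and 44.4, 30.7 and 25.1 CPM in pyruvate replicates. A gene can score far from 0 on this measure merely by separating the groups. In all, 405 genes had r above 0.9 and 488 had r below -0.9. The ranking was not stable: of the 10 genes, 0 were among the first 10 when group means were removed from each gene, and 0 without control replicate 2. Their r itself stayed far from 0. It was 0.956 to 0.992 and -0.992 to -0.936 with group means removed. Without control replicate 2 it was 0.992 to 0.995 and -0.996 to -0.991. Among the tested factors themselves, r with Sox2 over the same 6 libraries was -0.96 for Esrrb, -0.94 for Klf2 and -0.93 for Tbx3. It was -0.70 for Zfp42, -0.65 for Tfcp2l1, -0.63 for Klf4 and 0.062 for Pou5f1.

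The promoter windows of the factors also differed in base composition. CG dinucleotides numbered 27 in the Sox2 window, 40 in Klf4, 32 in Klf2 and 21 in Tfcp2l1, against a median of 7 over all windows. Nearer to that median were the Esrrb windows with 7 each, the Pou5f1 windows with 11 and 6, and the Zfp42 window with 11. The Nanog windows held 4 each. The letters GGGCGGGG, a box that KLF and SP factors can bind, were found on either strand in the windows of Sox2, Klf4, Klf2, Zfp42 and Pou5f1 and in 17.6% of all windows. Of these, Sox2 was lower in every pyruvate library and Klf2 higher. Zfp42 was higher only by a narrow margin (log2 fold change 0.10, SE 0.083), and Klf4 and Pou5f1 overlapped between the groups. A link between the box and the levels was not tested.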

How the data were processed

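A stranded mRNA kit was used for the 6 libraries of germline stem cells, per the labels' protocols. The authors deposited whole-number counts per Ensembl gene, not normalized. Per the submitters' processing notes, the tools were HTSeq 2.0.5, STAR 2.7.11a, cutadapt 4.6 and bcl2fastq 2.20, on mm10. Annotation release, strand setting and filters: not given in the sources used here. Genes overlapping others are therefore uncertain. A further 3 columns matched no sample and were left out.

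In R 4.3.3, edgeR 4.0.16 was run with filterByExpr (minimum count 10), TMM scaling, a robust quasi-likelihood test of 3 against 3 libraries without covariates, and Benjamini-Hochberg adjustment over 14912 genes at 0.05. Library totals of 20918312 to 26413080 counts set the precision. An SE is the size of the log2 fold change over the square root of F. Log2 CPM used a prior count of 2. Positions and exon lengths are from GENCODE M21 (GRCm38). The main edgeR fit was tested on simulated counts with known changes, and the other steps were not.

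Members and lists were chosen with earlier results of these data known. Named are the 10 members, Sox2ot, named genes starting within 1000000 bases of Sox2, each role list's tested gene of highest length-scaled level and of highest and lowest log2 fold change with any past the threshold, and the 5 genes most and 5 least correlated with Sox2. Names outside this rule are marked as picked from their values. A gene under this rule is not reported here. Alternatives were other scalings, filters, DESeq2 1.42.0, limma-voom (limma 3.58.1), the replicate block, GC and length trends, and leaving out each library.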

Additional observations from a re-analysis of the deposited data

How the results depend on the processing

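The log2 fold change of Sox2 was below 0 in all 16 alternatives. It was -1.18 with DESeq2, -1.19 with GC and length trends removed, -1.17 without a filter, -1.16 with upper-quartile scaling, and -1.32 to -0.99 when single libraries were left out. It passed the threshold in 7 of the 16, which is a description, since Sox2 was chosen for this difference, and did not pass with library totals, limma-voom, the 5 CPM filter, DESeq2's size factors in edgeR or 5 of the 6 single omissions. The factors called, 0 in edgeR, numbered 3 with DESeq2, 3 with GC and length trends removed, 1 without a filter, 1 with upper-quartile scaling, and 0 to 2 with single libraries left out. Genes called in the whole table, 8 in edgeR, numbered 317 with DESeq2, 538 with GC and length trends removed, 14 with library totals, 83 without a filter, 15 with upper-quartile scaling, and 0 to 625 with single libraries left out (625 without control replicate 2, 3 or fewer without any of the other 5). The cause was not tested. With the replicate block, 265 genes and 2 factors were called and Sox2 was at -1.19; with block and GC and length trends removed, 1497 genes and 4 factors, Sox2 at -1.21. Whether the replicate numbers pair the samples was not settled. Deviations of same-numbered libraries correlated at 0.311, 0.311 and -0.073, and 4 of 6 libraries correlated best with their own number. Over all named genes, 549 values kept direction and side of the threshold, 67 moved past it and 20 changed sign. With GC and length trends removed, without and with the block, the sign changed for Ccdc39 (0.092, 0.094), Dnajc19 (0.060, 0.068), Fxr1 (0.090, 0.088), Klf16 (-0.014, -0.013) and Trim28 (-0.051, -0.051). With single libraries left out it changed for Ccdc39 (-0.18 to 0.13, also 0.056), Fxr1 (-0.0998 to 0.013), Pou2f1 (-0.29 to 0.23), Trim28 (-0.079 to 0.087, also -0.039), Ttc14 (-0.41 to 0.11), Ubp1 (-0.0999 to 0.028) and Pou5f1 (-0.18 to 0.0030, also 0.00019). Control replicate 2 was the omitted library for the value of changed sign in Ttc14, Pou2f1, Ubp1 and Fxr1. It was also the one omitted for the value of 0.13 in Ccdc39. Depth limits Nanog and Prdm14, which lay near or under the floor, and 3 libraries a group from 1 line limit the rest.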
